A study of Mus musculus with 18 samples.

Results

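The subject is the difference between 2 subsets of colon dendritic cells in how their gene expression changed with dextran sulfate sodium (DSS), which damages the lining of the colon when given by mouth and is used as a colitis model. For each gene, the DSS change is the mean log2 value after DSS minus the mean in untreated mice. The interaction is the DSS change of CD103+CD11b- cells minus the DSS change of CD103+CD11b+ cells, so a positive value means a more upward change in CD103+CD11b- cells. It draws on 12 of the 18 arrays of the study, 3 in each of 4 groups: untreated CD103+CD11b-, DSS CD103+CD11b-, untreated CD103+CD11b+ and DSS CD103+CD11b+. All were whole-transcript arrays of RNA from the colon lamina propria of 8-week-old BALB/c mice, and the DSS dose was 2%. Experiments numbered 1 to 3 were untreated and those numbered 4 to 6 received DSS, and a subset has 1 array per experiment. The third subset, CD103-CD11b+ cells, entered the fit for the estimate of the spread, and its levels are given where they bear on a gene. The labels give no duration of DSS, no sex and no number of mice per array, nor do they say that replicates were separate animals, so the p-values measure the spread between these arrays. Since no experiment held both conditions, experiment and DSS cannot be told apart. Each experiment did hold both subsets, so the interaction compares subset differences taken within experiments.

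Intestinal CD103+ dendritic cells carry antigen from the lamina propria to the draining lymph nodes. The CD103+CD11b- cells belong to the conventional type 1 lineage (cDC1), which depends on Irf8 and Batf3, takes up dead cells and presents antigen to CD8 T cells. The CD103+CD11b+ cells belong to the type 2 lineage (cDC2), which depends on Irf4 and Notch2 and carries SIRP alpha and C-type lectins. In colitis, monocytes enter the lamina propria and give rise to cells that share CD11c and MHC class II with dendritic cells.

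The markers matched the sort labels in both conditions. The subsets differed at an adjusted p under 0.05 in 960 of 14003 genes (6.86%) without DSS and in 834 (5.96%) with it. Xcr1, the chemokine receptor of cDC1, had log2 values of 9.53, 9.76 and 9.58 in untreated CD103+CD11b- arrays and 7.31, 6.47 and 6.68 in untreated CD103+CD11b+ arrays. Cd209a, a lectin of cDC2, had 5.18, 4.67 and 4.87 against 8.04, 8.06 and 7.89. Each gene separated the subsets without overlap, and the subsets stayed apart after DSS by 2.43 for Xcr1 and -2.94 for Cd209a (CD103+CD11b- minus CD103+CD11b+). Among the genes of the sort antigens, Itgae (CD103) had DSS changes of 0.24 ± 0.13 (standard error, as are all errors beside log2 differences) in CD103+CD11b- cells and 0.22 ± 0.13 in CD103+CD11b+ cells. Its interaction of 0.02 had a 95% interval from -0.37 to 0.42. Itgax (CD11c) had an interaction of 0.19 ± 0.23 (adjusted p = 0.983).

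The test of the interaction called no gene. With limma on 14003 genes and Benjamini-Hochberg adjustment, 0 genes (0%) passed an adjusted p under 0.05, and 676 (4.83%) had an unadjusted p under 0.05. At an adjusted p under 0.1 there were 2 genes (0.0143%), Mgl2 in the positive and Crisp3 in the negative direction, both at 0.0979. The lack of calls does not show that the subsets changed alike: the median standard error of an interaction was 0.235, and the 95% interval lay within 1 log2 unit either way of 0 for 12353 genes (88.2%). For the other genes the interval reached or passed a 2-fold difference. Only 34 genes (0.243%) had an estimate over 1 in size.

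The estimates leaned to the positive side. Of the 676 genes with an unadjusted p under 0.05, 555 were positive and 121 negative, which is 82.1% positive. When the deposited values were quantile normalized again, the split was 373 to 208, or 64.2% positive, so its size depended on the scaling. The median interaction over all genes was 0.08 as deposited and 0.02 after that second normalization. In all, 50 genes (0.357%) were higher in every CD103+CD11b- DSS array and lower in every CD103+CD11b+ DSS array than in the untreated arrays of the same subset, and 7 (0.05%) showed the reverse. Across genes, which are not independent replicates, the DSS changes of the subsets had a Pearson correlation of 0.37 and a Spearman correlation of 0.25. Those points share the experiments, though no arrays. For the 20 genes of lowest p described next, 10 in each direction, the 3 subset differences within DSS experiments lay wholly above or wholly below the 3 untreated ones, as they did for 8.98% and 2.83% of all genes. Their low p values chose them, so nothing is read from that count.

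**Figure D1:**
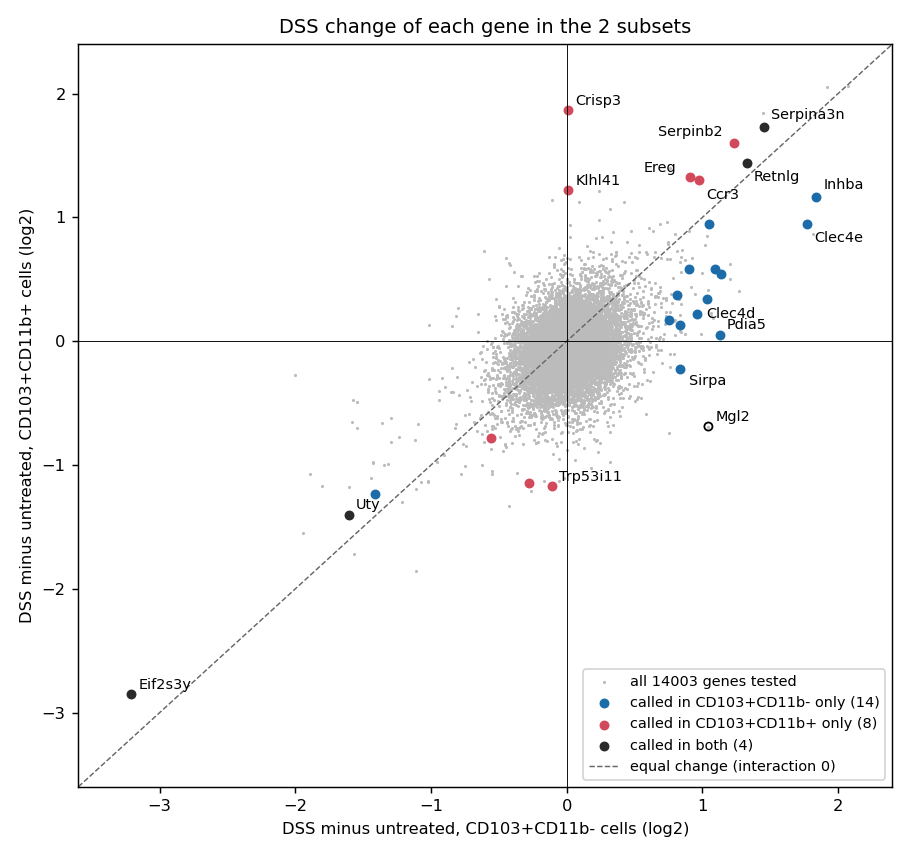
DSS change of each of the 14003 genes tested, in log2 units, in CD103+CD11b- cells (horizontal) and CD103+CD11b+ cells (vertical). Coloured points passed an adjusted p under 0.05 in CD103+CD11b- cells only (14 genes), CD103+CD11b+ cells only (8) or both (4), the open circle is Mgl2, which was called in neither, and the distance from the dashed line is the interaction, for which no gene was called.

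The lowest interaction p in the positive direction belonged to Mgl2, which encodes CD301b, a galactose-binding C-type lectin of cDC2. Untreated CD103+CD11b- arrays had log2 values of 4.76, 4.36 and 4.25, and DSS arrays 5.52, 5.30 and 5.68. In CD103+CD11b+ cells the values were 9.29, 9.77 and 9.75 untreated, and 9.07, 8.73 and 8.94 after DSS. Every DSS array lay above the untreated arrays in the first subset and below them in the second. The DSS changes were 1.04 ± 0.21 (adjusted p = 0.0673) and -0.69 ± 0.21 (adjusted p = 0.275), neither of which was called, and the interaction was 1.73 ± 0.30 with a 95% interval from 1.11 to 2.36. Within experiments, the CD103+CD11b- value was below the CD103+CD11b+ value by 4.53, 5.41 and 5.49 in untreated mice and by 3.55, 3.43 and 3.26 after DSS. The gene thus remained far lower in CD103+CD11b- cells, by 5.15 untreated and 3.41 after DSS. In bulk samples such as these, a change in the share of cells of a type and a change in RNA per cell cannot be told apart.

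Sirpa, the receptor for CD47 and a surface marker of cDC2, was the only non-sex-linked gene with a called DSS change whose estimates had opposite signs in the subsets. Its values in CD103+CD11b- cells were 6.30, 6.82 and 6.36 untreated and 7.26, 7.41 and 7.31 after DSS. The CD103+CD11b+ values were 8.55, 8.78 and 8.46 untreated and 8.51, 8.37 and 8.23 after DSS. Sirpa rose in CD103+CD11b- cells by 0.83 ± 0.14 (adjusted p = 0.0215), with no overlap of the arrays, and had a change of -0.23 ± 0.14 in CD103+CD11b+ cells, where the arrays overlapped. Its interaction was 1.06 ± 0.20 (95% interval 0.64 to 1.48, adjusted p = 0.174).

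Itgam, which encodes CD11b, the antigen by which the subsets were sorted, had 5.70, 5.02 and 4.70 in untreated CD103+CD11b- arrays and 6.12, 6.13 and 6.13 in DSS arrays. In CD103+CD11b+ arrays it had 7.22, 7.38 and 7.32, then 7.10, 7.35 and 7.64. The DSS arrays of CD103+CD11b- cells were the higher ones without overlap, and those of CD103+CD11b+ cells overlapped the untreated ones. The DSS changes were 0.99 ± 0.20 (adjusted p = 0.084) and 0.06 ± 0.20, and the interaction was 0.93 ± 0.29 (unadjusted p = 0.0045, adjusted p = 0.983). In CD103-CD11b+ cells the group means of Itgam were 7.93 and 8.01.

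These 3 genes lead the list of the cDC2 programme, of which 20 of 21 genes were tested. None of the 20 was called for the interaction (0% of all genes were), 4 had an unadjusted p under 0.05, all positive (3.96% of all genes had such a positive value), and 16 of the 20 estimates were positive. The fourth was Csf1r, the receptor for M-CSF, at 0.53 ± 0.24. The median of the list was 0.23, against 0.08 over all genes. Several defining genes of the lineage had smaller estimates: Cd209a 0.15 ± 0.34, Clec10a, the other galactose lectin, 0.16 ± 0.35, and Irf4, a transcription factor of cDC2, 0.22 ± 0.22. Clec10a, Cd209a and Irf4 were chosen after their values were seen. The summed level of the list (log2 of the sum of linear values) in CD103+CD11b- arrays ran from 11.40 to 11.53 untreated and from 11.34 to 11.53 after DSS. In CD103+CD11b+ arrays it ran from 12.65 to 12.71 and from 12.46 to 12.47, so no array of the CD103+CD11b- subset reached the CD103+CD11b+ level.

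**Figure D2:**
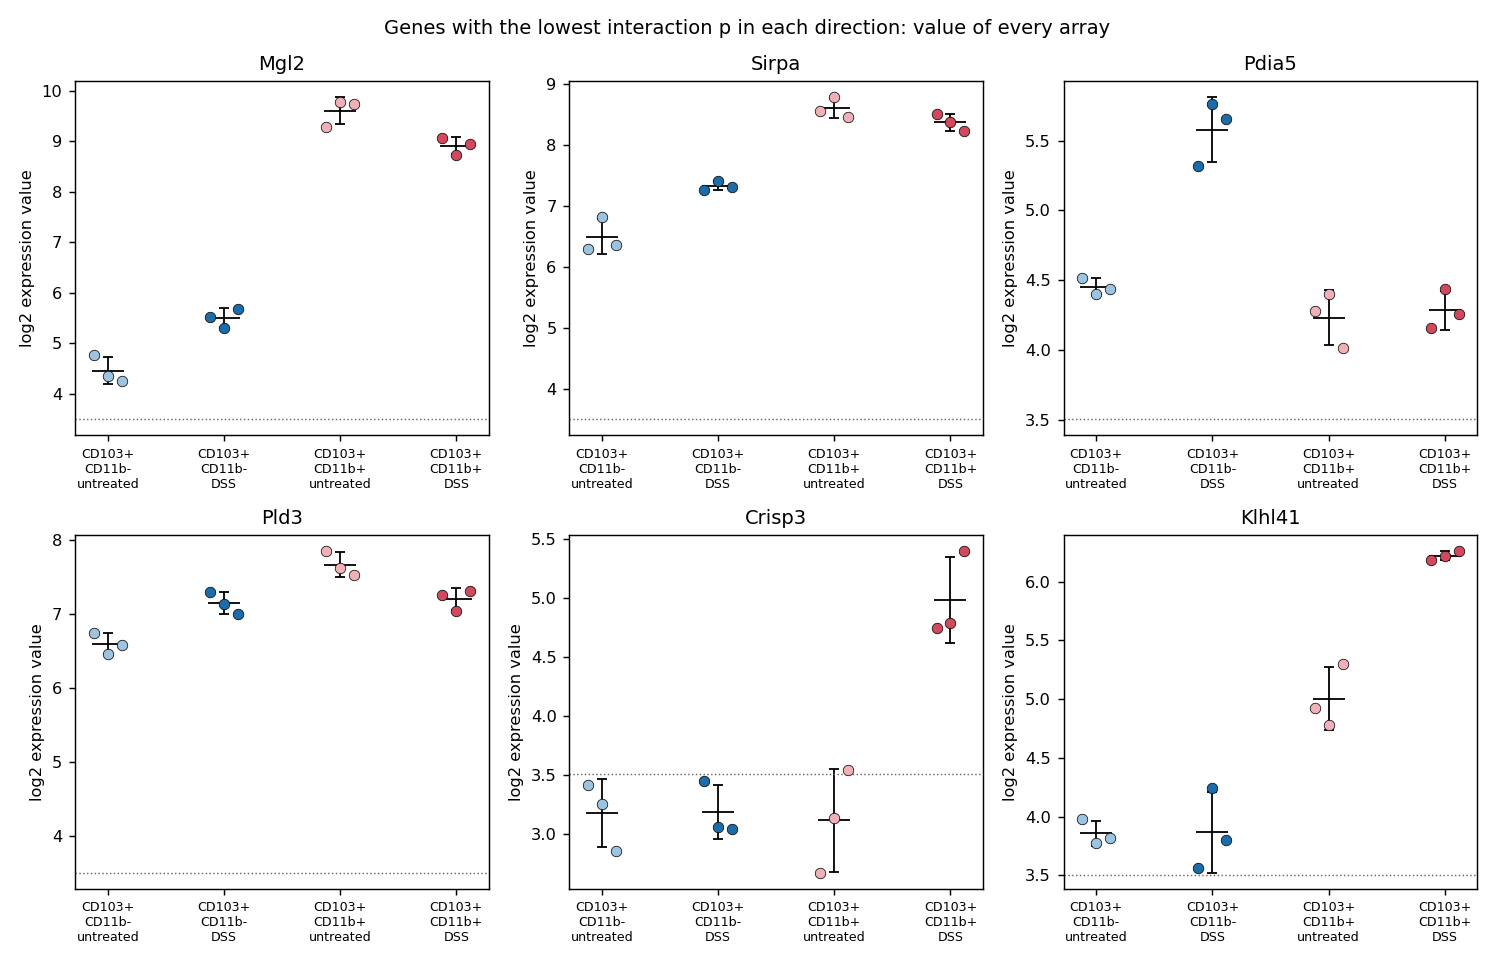
Log2 value of every array for 6 genes among those with the lowest interaction p in each direction, in 4 groups of 3 arrays. Horizontal bars are means, error bars are SD and the dotted line is the filter level of 3.51, and the vertical axes differ between genes. Mgl2, Sirpa and Pld3 moved closer between the subsets, Pdia5 was higher in the CD103+CD11b- DSS arrays alone, and Crisp3 and Klhl41 were higher in the CD103+CD11b+ DSS arrays than in the untreated ones.

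Pdia5, a protein disulfide isomerase of the endoplasmic reticulum, differed from these in that the subsets began at about the same level. Its values were 4.52, 4.40 and 4.44 in untreated and 5.32, 5.76 and 5.65 in DSS CD103+CD11b- arrays, against 4.28, 4.40 and 4.01, then 4.16, 4.44 and 4.26 in CD103+CD11b+ arrays. The 3 CD103+CD11b- DSS arrays were the highest of the 12. Pdia5 rose by 1.13 ± 0.14 in CD103+CD11b- cells (adjusted p = 0.00106) and had a change of 0.05 ± 0.14 in CD103+CD11b+ cells. The interaction was 1.07 ± 0.20 (95% interval 0.66 to 1.49, adjusted p = 0.168). The mean in CD103-CD11b+ cells was 4.22 untreated and 4.23 after DSS. Among the 25 tested genes of endoplasmic reticulum folding and stress, none was called for the interaction or for either DSS change and none had an unadjusted interaction p under 0.05, and the median DSS changes were 0.07 and -0.06.

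Pld3, a phospholipase D family nuclease of lysosomes, had values of 6.75, 6.47 and 6.58 in untreated and 7.30, 7.14 and 7.01 in DSS CD103+CD11b- arrays. The CD103+CD11b+ arrays had 7.86, 7.62 and 7.53, then 7.26, 7.04 and 7.32. The subset difference was -1.07 untreated and -0.06 after DSS, and the arrays of the 2 conditions did not overlap in either subset. The DSS changes of 0.55 ± 0.14 and -0.46 ± 0.14 were not called, and the interaction was 1.01 ± 0.20 (adjusted p = 0.174).

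The other 6 genes of lowest p in the positive direction had estimates from 0.62 to 1.06. They were Tsc1, an inhibitor of mTORC1 (0.71 ± 0.16), Tmcc1 (0.85 ± 0.20), Smad1, which transmits BMP signals (0.85 ± 0.20), Trp53i11 (1.06 ± 0.26), Fcer1g, the signalling chain of Fc receptors (0.62 ± 0.15) and Utf1 (1.02 ± 0.26), with adjusted p-values from 0.682 to 0.906. For Fcer1g the larger DSS change was in the CD103+CD11b- subset. Its values there were 8.89, 8.98 and 8.95 untreated and 9.38, 9.49 and 9.46 after DSS, while CD103+CD11b+ arrays stayed between 9.81 and 10.01. For Trp53i11 it was in the CD103+CD11b+ subset, where the gene fell by 1.17 ± 0.18 on the log2 scale (adjusted p = 0.00946) from 8.38, 8.05 and 7.62 to 6.80, 7.06 and 6.68. In CD103+CD11b- cells its change was -0.11 ± 0.18, and after DSS the subsets lay within 0.10 of each other in each experiment.

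In the negative direction, Crisp3, which encodes a cysteine-rich secretory protein, stood first. The CD103+CD11b+ arrays had 2.67, 3.13 and 3.54 untreated and 4.75, 4.79 and 5.40 after DSS. The CD103+CD11b- arrays had 3.41, 3.25 and 2.85, then 3.45, 3.06 and 3.04. The gene thus stood above the filter level of 3.51 in the 3 CD103+CD11b+ DSS arrays and, by 0.03, in 1 untreated array of that subset. Since the untreated mean was under that level, the rise in CD103+CD11b+ cells is given as at least 1.47 on the log2 scale (fitted value 1.87 ± 0.21, adjusted p = 0.000253). The fitted change in CD103+CD11b- cells was 0.01 ± 0.21, and the interaction was -1.85 ± 0.30 (95% interval -2.49 to -1.22, adjusted p = 0.0979). Crisp3 met the filter through the CD103+CD11b+ DSS arrays, the group in which it was high. The other groups compared had means under the filter level, so the size, interval and p of this interaction rest on values below it. In CD103-CD11b+ cells the means were 2.41 and 2.84, also under the filter level.

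Klhl41, a kelch protein known from skeletal muscle, rose in CD103+CD11b+ cells by 1.22 ± 0.18 (adjusted p = 0.00946), from 4.92, 4.78 and 5.30 to 6.18, 6.22 and 6.26. The CD103+CD11b- arrays lay between 3.56 and 4.24 in both conditions. The interaction was -1.21 ± 0.26 (adjusted p = 0.455). Klrk1, which encodes the activating receptor NKG2D, was next at -0.81 ± 0.20. It had 5.74, 5.99 and 5.82 in untreated and 6.70, 6.35 and 6.75 in DSS CD103+CD11b+ arrays (change 0.75 ± 0.14, adjusted p = 0.0503), while CD103+CD11b- arrays lay between 6.34 and 6.66. The remaining 7 genes were Ifi209, an interferon-inducible gene (-1.04 ± 0.30), Zfp101, Tcf23, Bet1, a SNARE of transport between endoplasmic reticulum and Golgi, Trim39, Trp53rkb and Vpreb2, a surrogate light chain. Their estimates ran from -1.04 to -0.59 and each had an adjusted p of 0.983. Zfp101, Trp53rkb and Vpreb2 lay close to the filter level, between 3.15 and 3.80 in all 12 arrays.

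Each DSS change on its own gave a short list. In CD103+CD11b- cells 18 of 14003 genes (0.129%) were called, 15 higher (0.107%) and 3 lower (0.0214%), and in CD103+CD11b+ cells 12 (0.0857%), 7 higher (0.05%) and 5 lower (0.0357%). Of the 26 genes called in either subset (0.186%), 4 were called in both (0.0286%): Serpina3n, Retnlg, Eif2s3y and Uty. After leaving out the 3 Y-linked genes described below, 23 genes remained, of which 22 had the same sign in both subsets and Sirpa had opposite signs. At an unadjusted p under 0.05 there were 852 genes (6.08%) in CD103+CD11b- cells, 61.0% of them higher, and 1410 (10.1%) in CD103+CD11b+ cells, 26.9% of them higher. Quantile normalization again moved these shares to 51.0% and 40.5%.

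Serpina3n, an acute-phase inhibitor of serine proteases, rose to a like degree in both subsets. Its values went from 5.44, 5.42 and 5.73 to 6.93, 6.87 and 7.15 in CD103+CD11b- arrays and from 5.98, 5.64 and 5.24 to 7.23, 7.75 and 7.08 in CD103+CD11b+ arrays. The changes were 1.45 ± 0.19 (2.74-fold, adjusted p = 0.00106) and 1.73 ± 0.19 (3.33-fold, adjusted p = 0.000149), and the interaction was -0.28 with a 95% interval from -0.83 to 0.28. Retnlg, a resistin-like protein of neutrophils, rose by 1.33 ± 0.25 and 1.44 ± 0.25, with an interaction of -0.11 ± 0.36. For both genes the intervals include equal changes, and a difference of about 2-fold lay outside them.

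Inhba, which encodes the activin A subunit, had the largest called rise in CD103+CD11b- cells. There it went from 5.28, 4.98 and 4.62 to 6.50, 7.05 and 6.85, a rise of 1.84 ± 0.24 (3.57-fold, adjusted p = 0.00106). In CD103+CD11b+ arrays it went from 6.32, 6.81 and 6.19 to 7.46, 7.51 and 7.86, with a change of 1.17 ± 0.24 that was not called (adjusted p = 0.0817). All DSS arrays lay above the untreated arrays of their subset, and the interaction was 0.67 ± 0.33 (adjusted p = 0.983). The highest levels were in CD103-CD11b+ cells, with means of 7.99 and 9.44.

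Several further genes called in CD103+CD11b- cells encode receptors of myeloid cells. Clec4e (Mincle), which binds mycobacterial glycolipid and a protein from dead cells, rose by 1.77 ± 0.29, and its neighbour Clec4d rose by 0.96 ± 0.16. Clec4d had 6.54, 6.27 and 6.32, then 7.23, 7.49 and 7.30 in CD103+CD11b- arrays, and between 8.04 and 8.58 in all CD103+CD11b+ arrays. Fcgr3, a low-affinity receptor for IgG, rose by 0.83 ± 0.15 from 6.15, 5.93 and 6.28 to 6.98, 7.20 and 6.68. In CD103+CD11b+ cells the changes were 0.95 ± 0.29 for Clec4e, 0.22 ± 0.16 for Clec4d and 0.13 ± 0.15 for Fcgr3, none of them called. Their interactions were 0.82 ± 0.41, 0.75 ± 0.22 and 0.70 ± 0.21, so an equal change was inside the 95% interval for Clec4e and outside it for the other two before adjustment.

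Also called as higher in CD103+CD11b- cells were Hcar2, a receptor for niacin and butyrate (1.14 ± 0.19), the chemokine Ccl6 (1.09 ± 0.19), Igfbp5, which binds insulin-like growth factors (1.05 ± 0.18), Tgm2, transglutaminase 2 (1.03 ± 0.19), Mgp, matrix Gla protein (0.90 ± 0.17), Lst1 (0.81 ± 0.15) and Ptgs2, cyclooxygenase 2 (0.75 ± 0.14). Ptgs2 had 8.84, 8.98 and 9.02 in untreated and 9.77, 9.77 and 9.56 in DSS CD103+CD11b- arrays, and 10.40 to 10.77 across the CD103+CD11b+ arrays. The CD103+CD11b+ changes of these 7 genes ran from 0.17 for Ptgs2 to 0.95 for Igfbp5 and were not called. Their interactions ran from 0.10 for Igfbp5 to 0.69 for Tgm2.

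Genes called as higher in CD103+CD11b+ cells and not in CD103+CD11b- cells were, besides Crisp3 and Klhl41, Serpinb2, an inhibitor of plasminogen activators (1.60 ± 0.27), Ereg, the growth factor epiregulin (1.33 ± 0.21), and Ccr3, an eotaxin receptor (1.31 ± 0.23). The same genes had CD103+CD11b- changes of 1.23 ± 0.27, 0.91 ± 0.21 and 0.98 ± 0.23, and all DSS arrays exceeded all untreated arrays in both subsets. Their interactions were -0.36 ± 0.38, -0.41 ± 0.29 and -0.33 ± 0.32. Thus passing the threshold in a single subset did not go with a detectable difference between subsets for these 3 genes. Lower in CD103+CD11b+ cells were Trp53i11, Ano1, a calcium-activated chloride channel (-1.14 ± 0.21), and the water channel Aqp4 (-0.78 ± 0.15, at least 0.69 lower counting from the filter level). In CD103+CD11b- cells Ano1 and Aqp4 had changes of -0.28 ± 0.21 and -0.56 ± 0.15.

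**Figure D3:**
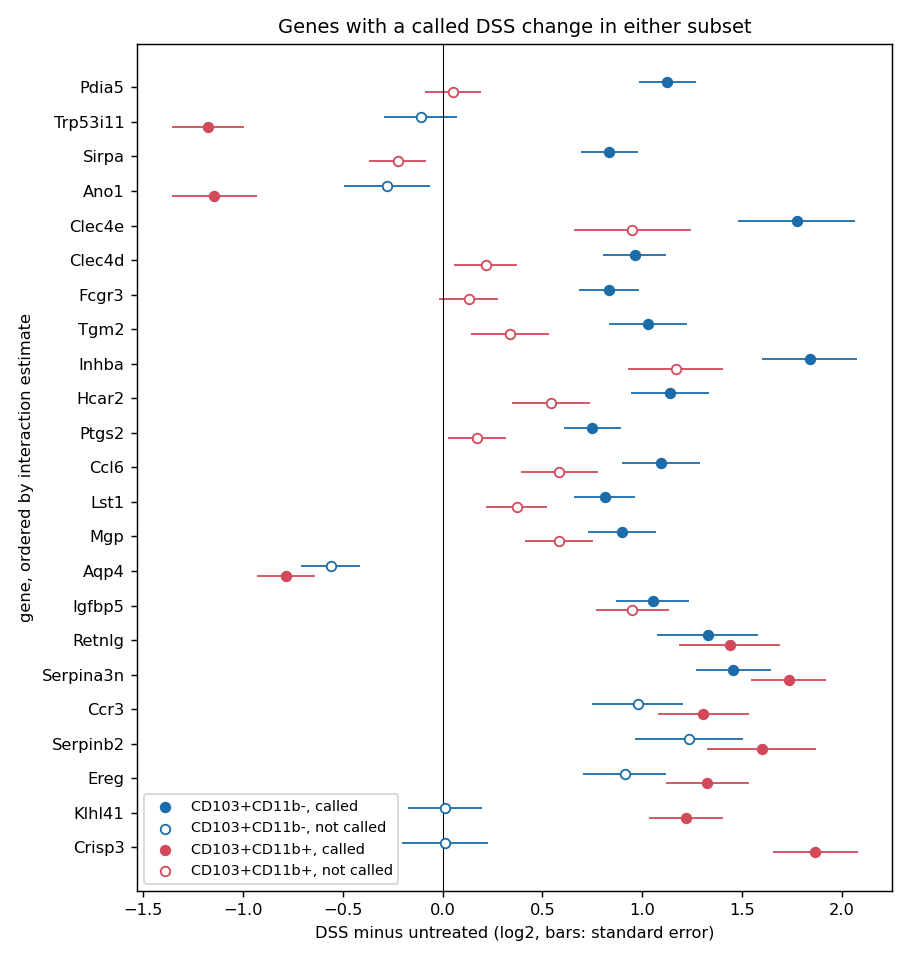
DSS change in log2 units for the 23 genes outside the sex-linked set that were called in either subset, in order of the interaction. Filled points passed an adjusted p under 0.05 and open points did not, bars are standard errors, and Sirpa is the gene whose estimates lie on opposite sides of 0 with a call in CD103+CD11b- cells.

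Calls differed with the arrays used. Leaving out 1 of the 12 arrays at a time gave 5 to 16 calls in CD103+CD11b- cells and 5 to 20 in CD103+CD11b+ cells. Inhba, Pdia5, Serpina3n, Eif2s3y and Uty in CD103+CD11b- cells, and Crisp3, Serpina3n and Eif2s3y in CD103+CD11b+ cells, were called whichever array was left out. In CD103+CD11b- cells Sirpa was called in 7 of the 12 such fits, Fcgr3 in 7, Clec4d in 8 and Mgp in 4. Retnlg and Tgm2 were each called in 3, Lst1 in 2 and Ptgs2 in 1, and the estimates of these 8 genes kept their sign. After quantile normalization again, Mgp and Tgm2 were not called in that subset (adjusted p = 0.0588 and 0.0509). With the 12 arrays alone, Sirpa (adjusted p = 0.0642), Fcgr3, Lst1, Mgp, Retnlg and Tgm2 were not called in that subset. In CD103+CD11b+ cells that fit did not call Ano1 and Aqp4, and it called Igfbp5. Ano1 and Aqp4 were each called in 2 of the 12 fits with an array left out. Neither was called after quantile normalization again (adjusted p = 0.0638 and 0.0742), and Ano1 was not called without the filter or with array weights. Retnlg in CD103+CD11b- cells was also not called without the filter (adjusted p = 0.0575). Without replicate 3 of untreated CD103+CD11b+ cells, the interaction of Crisp3 was called (adjusted p = 0.0222).

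The Y-linked genes marked a difference between the mice of the 2 conditions. Eif2s3y ran from 4.70 to 6.17 in the 6 untreated arrays and from 2.10 to 2.62 in the 6 DSS arrays, and Uty and Kdm5d followed it. Eif2s3y was lower after DSS by at least 1.95 in CD103+CD11b- and 1.74 in CD103+CD11b+ cells, counted from the filter level. Xist, which is transcribed from the inactive X chromosome, was at 8.26 to 9.45 in all 12 arrays. Male transcripts were therefore present above the filter level in untreated arrays only, with female transcripts in all. The sex make-up of the mice cannot be told apart from DSS in either DSS change or in the interaction. The interactions of Eif2s3y, Uty and Kdm5d were -0.36 ± 0.42, -0.21 ± 0.32 and -0.18 ± 0.35, each smaller than its standard error. These values do not show whether sex acted alike on other genes in the 2 subsets.

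Promoter windows are shown for 4 genes that the comparisons turned on: Mgl2 and Crisp3, with the lowest interaction p in each direction, Pdia5, which rose in CD103+CD11b- cells, and Serpina3n, which rose in both. They are RefSeq sequences on GRCm38.p6, from 250 bases before to 50 after the transcript start, printed 5′ to 3′ on the gene's strand. Capitals mark motif matches.
Mgl2, chr11:70130107-70130406, plus strand: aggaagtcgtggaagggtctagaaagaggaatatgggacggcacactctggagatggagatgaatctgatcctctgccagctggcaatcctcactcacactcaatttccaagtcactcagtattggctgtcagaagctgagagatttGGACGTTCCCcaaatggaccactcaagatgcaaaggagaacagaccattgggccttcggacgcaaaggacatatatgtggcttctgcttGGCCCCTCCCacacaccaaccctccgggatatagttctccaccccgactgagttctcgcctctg
Crisp3, chr17:40242239-40242538, minus strand: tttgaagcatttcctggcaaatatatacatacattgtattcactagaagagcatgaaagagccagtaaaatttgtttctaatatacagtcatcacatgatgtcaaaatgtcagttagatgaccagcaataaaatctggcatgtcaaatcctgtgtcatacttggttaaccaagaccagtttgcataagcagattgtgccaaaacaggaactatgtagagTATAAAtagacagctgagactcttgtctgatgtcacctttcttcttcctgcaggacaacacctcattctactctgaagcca
Pdia5, chr16:35490824-35491123, minus strand: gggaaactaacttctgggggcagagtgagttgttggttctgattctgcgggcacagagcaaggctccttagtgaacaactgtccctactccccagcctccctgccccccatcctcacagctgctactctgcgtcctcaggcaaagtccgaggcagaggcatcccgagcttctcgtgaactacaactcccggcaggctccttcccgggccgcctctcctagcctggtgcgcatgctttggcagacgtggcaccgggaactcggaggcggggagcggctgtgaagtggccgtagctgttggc
Serpina3n, chr12:104406458-104406757, plus strand: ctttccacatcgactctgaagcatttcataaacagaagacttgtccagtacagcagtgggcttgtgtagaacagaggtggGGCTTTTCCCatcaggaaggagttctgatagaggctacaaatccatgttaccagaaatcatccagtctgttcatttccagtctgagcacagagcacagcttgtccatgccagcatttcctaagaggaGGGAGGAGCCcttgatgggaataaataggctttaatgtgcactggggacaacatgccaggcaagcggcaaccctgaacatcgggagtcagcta

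The motifs searched on both strands were the STAT site TTCNNNGAA, the NF-kappaB site (GGGA and CC with any 4 bases between), the AP-1 site TGANTCA, the PU.1 site GAGGAAGT, the endoplasmic reticulum stress element (CCAAT and CCACG with any 9 bases between) and the TATA box TATAAA. Mgl2 and Serpina3n each held 2 matches to the NF-kappaB letters, Crisp3 held a TATA box 31 bases before the start, and Pdia5 held none of the 6. No matches overlapped in these 4 windows. Of 38 genes searched, namely those called in either DSS change or of lowest interaction p, 30 had a window. NF-kappaB letters occurred in 11 of the 30 and in 20.7% of all 32851 windows, TATA letters in 5 and 13.6%, AP-1 letters in 4 and 7.81%, and STAT letters in 3 and 8.3%. PU.1 letters and the stress element occurred in 0 of the 30, against 3.2% and 0.119% of all windows. A match describes these letters only, and no binding was measured.

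Gene lists were read by their counts, since no member of any of the 33 lists was called for the interaction. The lists hold 720 genes, of which 631 were tested, 27 did not pass the filter on low values and 62 had no usable probe set. Of the 32 lists with at least 9 genes tested, 22 had a median interaction above the 0.08 of all genes and 4 had one below 0.

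Complement and Fc receptor genes had the highest median, 0.41, with a range from 0.33 to 0.50 under the alternative settings run for the lists. The plasmacytoid list ranked above it without untreated replicate 1 of CD103+CD11b- cells (0.42 against 0.41) and without untreated replicate 2 of CD103+CD11b+ cells (0.45 against 0.33). Of 18 genes tested, 16 had positive estimates (62.5% of all genes did), and 7 had a positive value with an unadjusted p under 0.05, where 3.96% of all genes did. That count was 4 without untreated replicate 3 of CD103+CD11b- cells and 4 without untreated replicate 2 of CD103+CD11b+ cells. The 7 were Fcer1g, Fcgr3, Fcgr1, Itgam (a chain of the complement receptor CR3), C1qb, C1qc and Cfb (factor B). C1qb, a chain of the C1q complex, ran from 5.81 to 6.17 untreated and from 6.38 to 6.55 after DSS in CD103+CD11b- arrays, and from 6.92 to 7.30, then 6.62 to 6.94 in CD103+CD11b+ arrays. It was higher after DSS in all CD103+CD11b- arrays, overlapped in the CD103+CD11b+ arrays, and had an interaction of 0.86 ± 0.28. The median DSS changes of the list were 0.41 in CD103+CD11b- and -0.06 in CD103+CD11b+ cells. Fcgr3 in CD103+CD11b- cells was the only call (0.129% of all genes were called in that subset). Cd55, a complement inhibitor, and C5ar1, the C5a receptor, had negative estimates (-0.45 and -0.16). Fcgr1, Cfb, C1qc, Cd55 and C5ar1 were named after their values were seen.

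Pattern recognition genes had a median of 0.33 over 24 genes, with 19 positive estimates (62.5% of all genes were positive). Of these, 2 had an unadjusted p under 0.05, Clec4d and Tlr2 (3.96% of all genes did). That count was 4 with the experiment number as a block and from 2 to 6 over left-out arrays. Tlr2, which senses bacterial lipoproteins, had 5.88, 5.95 and 6.07 untreated and 6.59, 6.37 and 6.89 after DSS in CD103+CD11b- arrays, against 6.65 to 6.85, then 6.61 to 6.88 in CD103+CD11b+ arrays. The CD103+CD11b- arrays did not overlap between conditions and those of the other subset did. Its interaction was 0.63 ± 0.22. Tlr3, an endosomal sensor of double-stranded RNA typical of cDC1, was at -0.22 and Tlr4 at -0.15, both chosen after their values were seen.

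Of 25 macrophage markers, 19 had positive estimates (62.5% of all genes did) and 6 had a positive value with an unadjusted p under 0.05 (3.96% of all genes did): Mrc1 (0.88 ± 0.29), C1qb, C1qc, Apoe (0.62 ± 0.22), Csf1r and Fcgr1. That count was 3 without untreated replicate 3 of CD103+CD11b- cells and 3 without untreated replicate 2 of CD103+CD11b+ cells. The median was 0.15, against 0.08 over all genes, and without DSS replicate 4 of CD103+CD11b- cells it was 0.085, against 0.066. No member was called in either DSS change. Mrc1, the mannose receptor, had 7.03, 7.09 and 6.63, then 7.72, 7.59 and 7.55 in CD103+CD11b- arrays, and 7.87, 8.24 and 8.24, then 8.23, 7.83 and 7.77 in CD103+CD11b+ arrays. In CD103-CD11b+ cells, where macrophage markers were highest, its means were 9.51 and 9.31. The summed level of the macrophage list ran from 12.94 to 13.01 in untreated and 13.09 to 13.21 in DSS CD103+CD11b- arrays, from 13.21 to 13.33 and 13.18 to 13.31 in CD103+CD11b+ arrays, and from 13.89 to 14.44 and 13.89 to 14.09 in CD103-CD11b+ arrays. This summed level was higher after DSS without overlap in CD103+CD11b- arrays, and the conditions overlapped in CD103+CD11b+ arrays. Fcgr1, C1qb and C1qc belong to this list and to the complement and Fc receptor list, so they count in both. The part of macrophage RNA in the interactions of Sirpa, Mgl2, Itgam, Fcgr3 and the complement genes was not tested. No macrophage marker lay under the filter level in all CD103+CD11b- arrays of a condition.

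Of the 15 neutrophil genes tested, Retnlg and Clec4d were called in CD103+CD11b- cells (0.129% of all genes were) and Retnlg in CD103+CD11b+ cells (0.0857% of all genes were). S100a8 and S100a9, calprotectin subunits of neutrophils chosen after their values were seen, had DSS changes of 1.92 ± 0.52 and 2.07 ± 0.51 in CD103+CD11b- cells, and of 2.05 ± 0.52 and 2.06 ± 0.51 in CD103+CD11b+ cells. None was called, and the spread between DSS arrays was wide, with S100a8 at 4.63, 6.85 and 6.95 in CD103+CD11b- and 5.43, 6.35 and 6.87 in CD103+CD11b+ arrays. The interactions were -0.13 ± 0.73 and 0.00 ± 0.72. The summed level of the list went from 8.83 to 9.39 untreated to 9.63 to 10.20 after DSS in CD103+CD11b- arrays, and from 9.63 to 9.83 to 10.16 to 10.68 in CD103+CD11b+ arrays. Their median interaction was -0.05. The part of neutrophil RNA in the rises of Retnlg and Clec4d was not tested. Of the 15 genes, 2 lay under the filter level in every untreated array of each subset.

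Monocyte markers had the lowest median interaction, -0.11 over 16 genes. Over left-out arrays it ran from -0.18 to -0.05, the latter without untreated replicate 1 of CD103+CD11b- cells, and it was not the lowest in 4 of those 12 fits. Only 4 estimates were positive (62.5% of all genes were). At an unadjusted p under 0.05 there was 1 positive gene (3.96% of all genes) and 2 negative ones (0.864% of all genes). Ccr2, the chemokine receptor that brings monocytes into tissue, had 5.63, 5.74 and 5.59 in untreated and 6.09, 6.49 and 6.35 in DSS CD103+CD11b+ arrays, a change of 0.66 ± 0.20 that was not called (adjusted p = 0.275). In CD103+CD11b- arrays it ran from 6.03 to 6.97 with no shift between conditions, and the interaction was -0.70 ± 0.28. Itga1, the integrin alpha 1 chain, was at -0.89 ± 0.33, and Lyz1, a lysozyme, went the other way at 0.84 ± 0.35.

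The cDC1 programme, the identity genes of the CD103+CD11b- subset, had a median of 0.06 over 22 genes, with none called for the interaction or for either DSS change. Its 2 genes at an unadjusted p under 0.05 were positive, Batf3 and Zbtb46 (3.96% of all genes were positive and 0.864% negative at that level). With the experiment number as a block, and with the 12 arrays alone, 2 were positive and 2 negative. Quantile normalization again gave 1 positive and 2 negative. Zbtb46 also belongs to the list of genes common to dendritic cells and counts in both. The gene with the lowest p among the negative estimates was Naaa, a lysosomal amidase (-0.62 ± 0.30), followed by Clec9a, the receptor for actin filaments of dead cells (-0.70 ± 0.37). Clec9a had 7.93, 7.65 and 8.05, then 8.33, 8.40 and 8.16 in CD103+CD11b- arrays, and 4.35, 4.03 and 4.34, then 5.00, 5.66 and 5.43 in CD103+CD11b+ arrays. It was higher after DSS in every array of both subsets, with changes of 0.42 ± 0.26 and 1.13 ± 0.26 that were not called. Batf3, a transcription factor of cDC1, was positive at 0.59 ± 0.24, with CD103+CD11b+ values of 7.07, 6.66 and 6.96, then 6.46, 6.39 and 6.39. Xcr1 and Irf8 had interactions of -0.36 ± 0.30 and -0.35 ± 0.26. The median of this list was below 0 (-0.01) after quantile normalization again.

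Genes common to dendritic cells had 15 positive estimates of 16 (62.5% of all genes were positive), a median of 0.23 and 3 genes with a positive unadjusted p under 0.05 (3.96% of all genes). After quantile normalization again, 12 of the 16 estimates were positive. Flt3, the growth factor receptor on which dendritic cells depend, had 8.23, 8.33 and 8.20, then 8.71, 8.35 and 8.65 in CD103+CD11b- arrays, and 7.89, 7.82 and 7.61, then 7.50, 7.39 and 7.50 in CD103+CD11b+ arrays. Its DSS arrays lay above the untreated arrays in the first subset and below them in the second, and the interaction was 0.63 ± 0.24. Zbtb46, a transcription factor of conventional dendritic cells, also did so at 0.59 ± 0.21, and Spib, shared with plasmacytoid dendritic cells, was at 0.74 ± 0.34. For Flt3, Zbtb46 and Spib the CD103+CD11b+ changes were -0.31 ± 0.17, -0.34 ± 0.15 and -0.82 ± 0.24, none of them called. The plasmacytoid list had a median of 0.38 over 9 genes, of which Spib had an unadjusted p under 0.05.

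Among 26 cytokine genes, 3 were positive and 1 negative at an unadjusted p under 0.05 (3.96% and 0.864% of all genes were). Il22ra2, the soluble IL-22 binding protein, had 4.62, 4.40 and 5.14, then 5.14, 4.90 and 5.08 in CD103+CD11b- arrays, and 7.55, 7.29 and 7.52, then 7.19, 6.24 and 6.74 in CD103+CD11b+ arrays. The DSS arrays of CD103+CD11b+ cells were the lower ones without overlap, the other subset overlapped, and the interaction was 1.05 ± 0.35. Il1rn, the IL-1 receptor antagonist, was at 0.63 ± 0.20 with 7.37, 7.28 and 7.45, then 7.90, 8.04 and 7.95 in CD103+CD11b- arrays, where the conditions did not overlap. Osm, oncostatin M, was at 0.94 ± 0.33, and Il12a, the p35 subunit of IL-12, was at -0.63 ± 0.25.

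Of 29 chemokine genes, Cxcl14 (0.86 ± 0.31) and Ppbp were positive at an unadjusted p under 0.05 (3.96% of all genes were). With the experiment number as a block, 6 were positive and 2 negative at that level, and left-out arrays gave 1 to 4 positive ones. Ccl6 in CD103+CD11b- cells was the only call of a DSS change (0.129% of all genes were called in that subset). Among 17 chemokine receptors, Ccrl2, an atypical receptor, was at 0.59 ± 0.20 and Ccr2 at -0.70 ± 0.28. Aldh1a2, the enzyme that makes retinoic acid in CD103+ dendritic cells, was at 0.70 ± 0.33 with overlapping arrays in both subsets, and Smad7, an inhibitor of TGF-beta signalling, was at 0.49 ± 0.22. The list of retinoic acid and TGF-beta genes had a median of 0.21 over 25 genes. Its only call was Inhba in CD103+CD11b- cells (0.129% of all genes were called in that subset). The list's count of positive genes at an unadjusted p under 0.05 ran from 0 to 5 under the alternatives. Quantile normalization again gave 0 positive and 1 negative, with a median of 0.13. The experiment number as a block gave 2 positive and 1 negative.

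In the remaining lists the counts at an unadjusted p under 0.05 were low. Of all genes, 3.96% were positive and 0.864% negative at that level. Interferon-stimulated (25 genes), MHC class II presentation (15), immediate-early and heat shock (27), cell cycle (31), epithelial (24) and B and plasma cell genes (15) had 0 in either direction. Interferon-gamma response, glycolysis and hypoxia, and sterol synthesis genes had 2 each, all positive. MHC class I presentation, DC maturation and migration, tissue repair and matrix, NF-kappaB and TNF signalling, lipid efflux, respiratory chain, T, NK and innate lymphoid, stromal and eosinophil and mast cell genes had 1 each, all positive, among them Cybb, a subunit of the phagocyte oxidase (0.69 ± 0.23), and Ptgs2. Under the alternatives the positive counts of these lists reached at most 5, in the respiratory chain list, and at most 3 in the others. Interferon-gamma response had 2 positive and 2 negative genes with the experiment number as a block, and 1 and 2 after quantile normalization again. Glycolysis and hypoxia had 0 with the 12 arrays alone and after quantile normalization again. That normalization also gave 1 negative gene in the cell cycle list and 1 in the respiratory chain list. Epithelial transcripts had median DSS changes of -0.37 in CD103+CD11b- and -0.44 in CD103+CD11b+ cells, and summed levels of 13.18 to 13.47 untreated and 12.996 to 13.16 after DSS in CD103+CD11b- arrays and of 13.35 to 13.80 and 13.27 to 13.38 in CD103+CD11b+ arrays. Their part in the DSS changes was not tested. Their median interaction was 0.04.

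**Figure D4:**
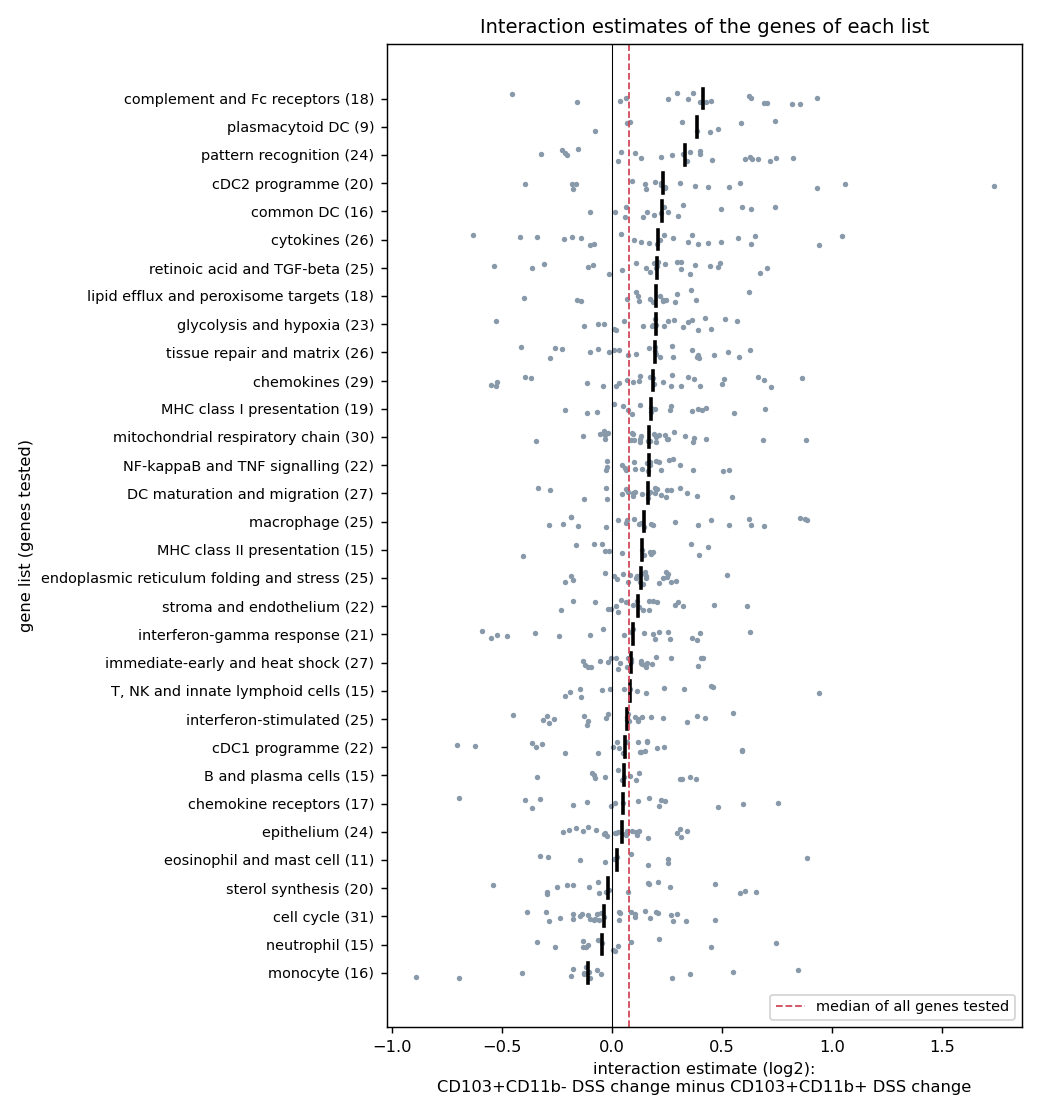
Interaction estimate in log2 units of each gene (points) in the 32 lists with at least 9 genes tested, with list medians (black bars) and the median of all 14003 genes (dashed line, 0.08). The complement and Fc receptor list lies highest with a median of 0.41 and the monocyte list lowest with -0.11, and no gene shown was called.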

How the data were processed

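The study's 18 Affymetrix arrays form 6 groups of 3. The deposited log2 expression values of probe sets came from RMA, per the submitters' processing notes, a method that corrects background, normalizes by quantiles and summarizes probes. Its version was not given in the sources used here. Per the labels' protocols, amplification (Ovation Pico) started from 5 ng of total RNA, and labelling used 5.5 ug of single-stranded DNA, which may compress differences of rare transcripts. Values ran from 1.07 to 13.16, array medians from 3.99 to 4.09, and correlations within groups from 0.969 to 0.982. Precision is limited by the number of arrays, and DSS changes had a median standard error of 0.166.

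Of 34760 probe sets, 21640 carried 1 gene symbol and were used, 1321 carried several and 11799 none; 21553 matched RefSeq (GRCm38.p6) by gene identifier, which updated their symbols. Probe sets were retained where the value exceeded the 40th percentile of all values, 3.51, in at least 3 of the 18 arrays. That level is a percentile and no detection limit. The kept probe set with the highest mean stood for its gene, leaving 14003 genes. A single limma 3.58.1 model (R 4.3.3, data.table version 1.17.8, statmod 1.5.0) held a mean for each of the 6 groups. All tests were two-sided, and called means a Benjamini-Hochberg adjusted p under 0.05 over all 14003 genes. The scripts were tested on simulated data. A change whose lower group mean was under 3.51 is given as a lower bound where it was called.

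The model held no block for the experiment number, so the printed errors, intervals and p-values treat the arrays as unpaired. The number was judged to pair the subsets from correlations of residuals across genes. These were 0.100 to 0.311 for the 6 pairs of arrays with the same number and -0.344 to 0.0992 for the 12 other pairs. Residuals from a group mean cancel within the group, so positive values for same-number pairs push the others down. The other pairs are therefore no separate evidence of pairing. With the number as a random block, the consensus correlation of arrays with the same number was only 0.0596. The labels do not state what the number marks. Alternatives were the number as a replicate block, the 12 arrays alone, quantile normalization again, other filters, every probe set, another spread estimate, array weights and leaving out each array.

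The comparison, the gene lists and the tests were chosen with earlier results of these data known. Named genes are Itgae, Itgam and Itgax, the 10 genes of lowest interaction p in each direction since none was called, the called DSS changes, and in each list the 4 genes of lowest interaction p and the called members, of which a selection is described. Genes outside this rule are marked in the text; Xcr1, Cd209a and the sex-linked genes also were chosen as checks.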

Additional observations from a re-analysis of the deposited data

Results flagged for a closer look

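The 44 genes considered were those of the sort antigens, the 20 of lowest interaction p and those called in either DSS change. For 7 of the 44, all among those 20, all 3 CD103+CD11b- DSS arrays moved one way from the untreated arrays. All 3 CD103+CD11b+ DSS arrays moved the other way. The difference itself was tested by the interaction in limma, and none of the 7 was called, with adjusted p-values from 0.0979 to 0.983. Mgl2 (interaction 1.73), Pld3 (1.01), Smad1 (0.85), Tmcc1 (0.85) and Tsc1 (0.71) were higher in CD103+CD11b- and lower in CD103+CD11b+ cells. Vpreb2 (-0.59) and Zfp101 (-0.62) showed the reverse. The values of Vpreb2 and Zfp101 lay close to the filter level in every array compared, so their opposite directions are not read as regulation. Smad1 ran from 5.40 to 5.54 untreated and from 5.59 to 6.01 after DSS in CD103+CD11b- arrays, and from 6.20 to 6.37, then 5.72 to 6.02 in CD103+CD11b+ arrays. Tsc1 had 5.67, 5.52 and 5.56, then 5.84, 5.84 and 5.90, against 6.37, 6.27 and 6.33, then 5.79, 6.01 and 5.87. Over all 14003 genes, 0.407% had all arrays of the subsets move in opposite directions, and the 7 were looked at because of their low p.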

How the results depend on the processing

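The interaction had 0 calls with the experiment number as a replicate block (830 genes at an unadjusted p under 0.05), as a random block (chosen after seeing the data; 774 genes), with the 12 arrays alone, quantile normalization again, no filter, the 60th percentile filter and every probe set. It had 2 calls, Mgl2 and Crisp3, with a trend and robust estimate of the spread (adjusted p = 0.0362 for both) and 1, Crisp3, with array weights (adjusted p = 0.0462). Leaving out each array gave 0 to 1 interaction calls, the 1 being Crisp3 without CD103+CD11b+ untreated replicate 3. Crisp3 had met the filter through its CD103+CD11b+ DSS arrays, and its other groups compared had means under the filter level. For DSS in CD103+CD11b- cells the left-out arrays gave 5 to 16 calls instead of 18: 8 without untreated replicate 1, 6 without untreated replicate 3, 9 without DSS replicate 4, 5 without DSS replicate 5 and 7 without DSS replicate 6 of that subset. In CD103+CD11b+ cells they gave 5 to 20 instead of 12: 5 without untreated replicate 1, 7 without replicate 2, 20 without replicate 3, 7 without DSS replicate 4 and 5 without DSS replicate 6. Other settings gave 13 to 23 and 10 to 17 calls, or 15 and 10 without sex-linked genes, a setting chosen after seeing the data. The replicate block changed no call of the interaction.

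Estimates near 0 changed sign. With quantile normalization again Itgae had an interaction of -0.054, and with array weights Crisp3 and Klhl41 had CD103+CD11b- changes of -0.042 and -0.0052. Over left-out arrays the interactions ran from -0.080 to 0.114 for Itgae, -0.35 to 0.13 for Retnlg, -0.057 to 0.27 for Igfbp5, -0.54 to 0.063 for Uty, -0.40 to 0.15 for Kdm5d and -0.71 to 0.19 for Stfa2. The CD103+CD11b- changes ran from -0.15 to 0.13 for Crisp3 and -0.18 to 0.16 for Klhl41, and the CD103+CD11b+ change of Pdia5 from -0.058 to 0.14. The cause was not tested.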
